A study of Caenorhabditis elegans with 3 samples.

Results

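Cuticlins and zona pellucida (ZP) domain proteins are secreted parts of the apical extracellular matrix of Caenorhabditis elegans, a free-living nematode. With each row of no single symbol counted as a gene, the family described here held 35 genes of 19293 tested. It took every gene whose single symbol in the probe annotation begins with cut- or cutl- and a number, together with noah-1, noah-2, fbn-1, dyf-7 and ram-5. These were 6 cut genes, 24 cutl genes and 5 others, each with 1 row on the array and a value on all 3 arrays. RefSeq (assembly WBcel235) lists 40 genes under these names. The other 5, cutl-10, cutl-23, cutl-24, cutl-25 and cutl-26, were not analysed here.

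The arrays compared adults, marked TP12 and "w/ emb 3" in the labels, with a mixed wild-type (wt) reference. Channel 2 of each of the 3 two-colour arrays held mRNA of 1 adult preparation, numbered 1 to 3, and channel 1 held the reference. The labels give no strain, age, growth condition or treatment for the adults, and do not describe what the reference was mixed from. Nothing in them ties the preparations to cultures of their own, so the p-values measure only the spread between these arrays, which may be technical.

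Cuticlins were named for the part of the nematode cuticle that stays insoluble when the collagens are extracted. Most of them carry a ZP domain, a module named after the egg coat proteins of vertebrates, through which secreted proteins assemble into filaments and sheets outside the cell. In C. elegans such proteins shape the alae, which are ridges of the cuticle above the seam cells in first-stage larvae, dauer larvae and adults. Other ZP proteins form the sheath around the embryo, the anchor of sensory dendrites and the surface of the male tail.

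Values are log2 ratios of the channels. The direction of the ratio is not stated in the sources used here, and it is called likely adults over reference from the channel order and from markers of the stage. Of 12 genes of yolk, oocyte and eggshell, 9 were higher and none lower. All 3 moulting markers (mlt-8, mlt-9 and mlt-10) and 4 of 5 sperm and seminal fluid markers were lower. Of all genes tested, 14.8% were higher and 13.7% lower. Of the adult cuticle collagen genes, col-19 stood at 0.92 ± 0.57 and col-7 at -0.26 ± 0.92 (SD, n = 3). "Higher" and "lower" would exchange places under the opposite direction. Replicate 1 stood apart from the others. Over all rows it correlated at r = 0.68 and 0.66 with replicates 2 and 3, which correlated with each other at 0.89. The medians of 32 successive blocks of rows ran from -0.35 to 0.39 on its array, from -0.12 to 0.23 on that of replicate 2 and from -0.12 to 0.21 on that of replicate 3. Every array had from 19832 to 19904 measured values, and the number of arrays limits the precision.

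The cut genes held both ends of the family, and most cutl genes lay near 0. Of the 35 genes, 5 were lower in the adults: cut-1, cut-6, cut-4, cutl-12 and cut-5. Another 2 were higher, namely cut-2 and cutl-16, and 28 did not pass an adjusted p of 0.05 in limma. The 5 lower genes are 14.3% of the family, beside 13.7% of all genes tested. The 2 higher genes are 5.71%, beside 14.8%. In both directions together 20% of the family passed, beside 28.5% of all genes. The share of lower genes was thus close to the background, and the share of higher genes stood below it without a test of that difference. The median log2 ratio was 0.05 for the family and 0.02 for all genes. A mean of at least 1 in size was reached by cut-1 and cut-2 only, which are 5.71% of the family beside 8.78% of all genes. All 3 arrays shared a sign for 13 of the 35 genes (37.1%) and for 57.4% of all genes.

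**Figure D1:**
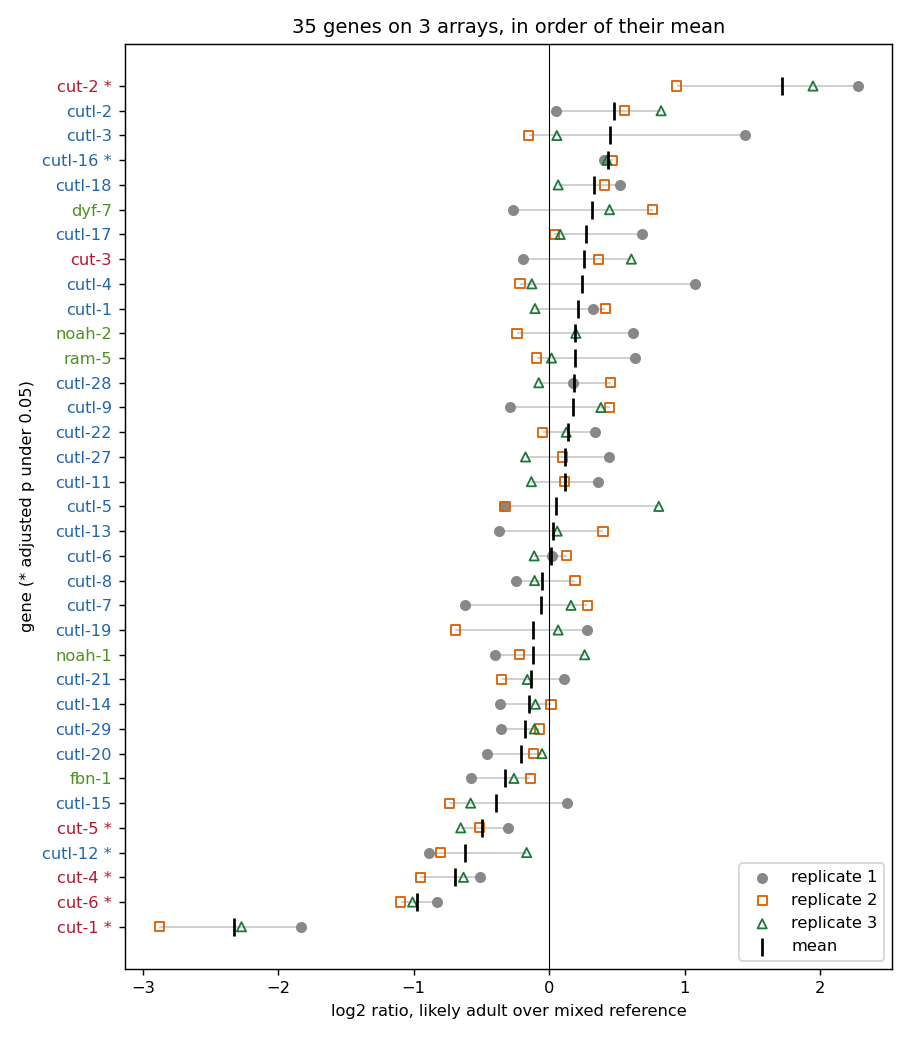
Log2 ratio (horizontal axis, likely adult over reference) of each of the 35 genes on each of 3 arrays, in order of the mean, with a line over the range of the arrays. Red names are cut genes, blue names cutl genes and green names the other 5, and an asterisk marks the 7 genes with an adjusted p under 0.05; cut-1 at -2.33 and cut-2 at 1.72 lie at the ends.

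The gene with the lowest ratio was cut-1, whose product is a ZP cuticlin of the ribbon under the alae of dauer larvae. Its log2 ratios were -1.83, -2.88 and -2.27 in replicates 1, 2 and 3. All 3 arrays lay well below 0, with replicate 2 the lowest. The mean was -2.33 ± 0.53 (SD, n = 3), or 5.02-fold lower in the adults (adjusted p = 0.000303, limma). Only 0.487% of all genes tested had a mean at or below it. Leaving out any 1 array kept it between -2.58 and -2.05 and past the threshold.

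The second lowest was cut-6, a ZP cuticlin gene needed for the alae of dauer larvae and for normal body shape. It stood at -0.83, -1.10 and -1.01 in replicates 1, 2 and 3. The arrays lay close together and none came near 0. The mean was -0.98 ± 0.14 (SD, n = 3), or 1.97-fold lower (adjusted p = 0.00204, limma), and the call held without any 1 of the arrays. In every array the ratio of cut-6 exceeded that of cut-1, by 1.00 to 1.78 on the log2 scale. This difference has no test here.

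Smaller negative ratios were found for cut-5 and cut-4. The product of cut-5 is a ZP cuticlin of the alae of both first-stage and dauer larvae. It stood at -0.31, -0.52 and -0.65 in replicates 1, 2 and 3, all below 0. Its mean was -0.49 ± 0.17 (SD, n = 3; adjusted p = 0.0365, limma), or 1.41-fold lower. It did not pass without replicate 2 (-0.48, adjusted p = 0.173, limma), without replicate 3 (-0.41, 0.304) or with blocks of rows centred (-0.37, 0.0718). The values of cut-4, another ZP cuticlin gene, were -0.51, -0.95 and -0.63, again all below 0. Its mean was -0.70 ± 0.23 (SD, n = 3; adjusted p = 0.0108, limma), or 1.62-fold lower, and without replicate 2 it was -0.57 (0.0881). The median of the block of rows that holds cut-4 was -0.35 on the array of replicate 1, and the value less that median was -0.16 there, -1.05 in replicate 2 and -0.80 in replicate 3.

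The only cut gene that did not pass was cut-3, whose product is a ZP cuticlin of the alae of first-stage larvae. Its log2 ratios were -0.19, 0.37 and 0.61 in replicates 1, 2 and 3, so the arrays lay on both sides of 0. The mean was 0.26 ± 0.41 (SD, n = 3; adjusted p = 0.334, limma), with a 95% interval from -0.16 to 0.68. Without replicate 1 the mean was 0.49 and passed (adjusted p = 0.0153, limma), and without replicate 3 it was 0.09 (0.887). The block of rows around cut-3 had a median of -0.34 on the array of replicate 1, and its part in that value was not tested.

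The gene with the highest ratio was cut-2, which is unlike the rest of the family. Its product is a cuticlin with no ZP domain, made of short repeats and joined through tyrosine crosslinks into the insoluble cuticle. Its log2 ratios were 2.28, 0.94 and 1.95 in replicates 1, 2 and 3. All 3 arrays were well above 0, and replicate 2 was the lowest. The mean was 1.72 ± 0.70 (SD, n = 3), or 3.30-fold higher in the adults (adjusted p = 0.00191, limma). Only 0.415% of all genes had a higher mean. The call held without any 1 array, with means from 1.44 to 2.11. Within an array, cut-2 exceeded cut-1 by 4.11, 3.82 and 4.22 on the log2 scale in replicates 1, 2 and 3, so this gap varied less between arrays (SD 0.21) than either gene did.

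**Figure D2:**
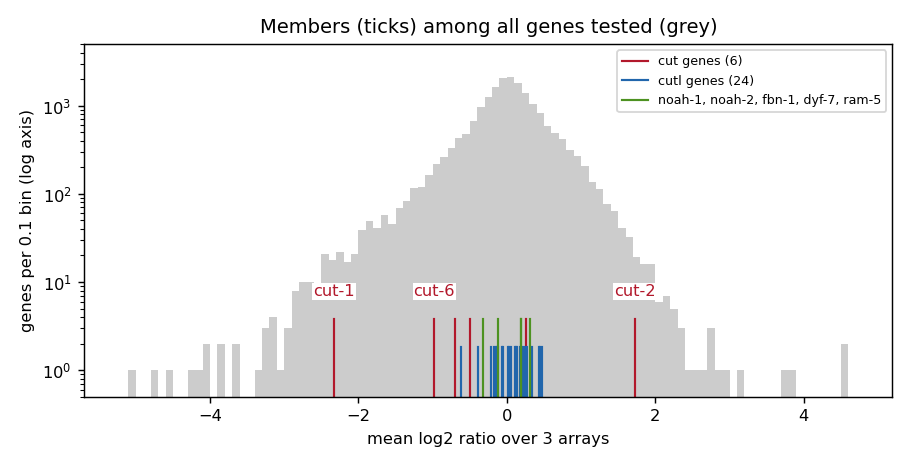
Number of genes per bin of 0.1 in the mean log2 ratio (log vertical axis, grey) for the 19293 genes tested, with a tick for each of the 35 genes (red cut, blue cutl, green the other 5). The cutl ticks lie between -0.62 and 0.48, while cut-1 and cut-2 lie in the outer slopes of the grey distribution.

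The cutl genes are named for their likeness to cuticlins, and little is known of most of them singly. Of the 24, 1 was lower, 1 higher and 22 did not pass, with a median log2 ratio of 0.08 and means from -0.62 to 0.48. That is 4.17% in each direction, beside 13.7% of all genes lower and 14.8% higher, without a test of the difference. The median distance of the cutl genes from 0 was 0.18, beside 0.84 for the 6 cut genes and 0.27 for all genes tested. The lower gene was cutl-12, at -0.89, -0.80 and -0.17 in replicates 1, 2 and 3. All 3 were below 0, with replicate 3 nearest to it. Its mean was -0.62 ± 0.39 (SD, n = 3; adjusted p = 0.0337, limma), or 1.54-fold lower, and it did not pass without replicate 2 (-0.53, 0.131). The higher gene was cutl-16, at 0.40, 0.47 and 0.43, with the smallest SD of the family (0.033). Its mean was 0.43 ± 0.033 (SD, n = 3; adjusted p = 0.0462, limma), or 1.35-fold higher. It did not pass without replicate 2 (0.41, 0.260), without replicate 3 (0.44, 0.269) or with array medians subtracted (0.41, 0.0542). A fit without 1 array rests still more on the variance shared across genes. Without replicate 2 or 3, passing depended largely on the size of the mean, and less on how closely the gene's own arrays lay together. This was less so without replicate 1, where cutl-9 at 0.41 had a smaller adjusted p (0.0235, limma) than cutl-12 at -0.48 (0.0456). The first gene beyond the threshold was cutl-2, with a larger mean of 0.48 ± 0.40 (SD, n = 3) and an adjusted p of 0.0823 in limma.

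Several other cutl genes rested on 1 array. The ratios of cutl-3 were 1.45, -0.15 and 0.06 in replicates 1, 2 and 3. Those of cutl-4 were 1.08, -0.22 and -0.13. Both were thus well above 0 in replicate 1 alone, and without that array their means were -0.05 and -0.17. Without replicate 2 cutl-3 passed at 0.75 (adjusted p = 0.0247, limma), although the arrays left stood at 1.45 and 0.06. The block of rows around cutl-3 had a median of 0.31 and that around cutl-4 of 0.35 on the array of replicate 1, so that both stayed above their blocks there, by 1.14 and 0.73. The gene cutl-5 was high in replicate 3 only, at -0.33, -0.33 and 0.81, and its mean without that array was -0.33.

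In cutl-15, cutl-2, cutl-9 and cutl-7 replicate 1 lay apart from the other arrays. The ratios of cutl-15 were 0.13, -0.74 and -0.58 in replicates 1, 2 and 3. Those of cutl-2 were 0.05, 0.56 and 0.83, and those of cutl-9 were -0.29, 0.45 and 0.38. In each of these 3, replicate 1 was nearer 0 than the other arrays or on the other side of it. Without replicate 1 these genes passed at -0.66, 0.69 and 0.41 (adjusted p = 0.00327, 0.0033 and 0.0235, limma). Without replicate 2 cutl-15 stood at -0.22 and cutl-9 at 0.05, and without replicate 3 cutl-2 stood at 0.30, and none of these passed. The ratios of cutl-7 were -0.62, 0.28 and 0.16. In cutl-19, at 0.28, -0.69 and 0.07, it was replicate 2 that lay apart.

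The remaining cutl genes had means from -0.21 for cutl-20 to 0.33 for cutl-18. Those below 0 were cutl-20, cutl-29, cutl-14, cutl-21 and cutl-8. Those above 0 were cutl-6, cutl-13, cutl-11, cutl-27, cutl-22, cutl-28, cutl-1, cutl-17 and cutl-18. In cutl-17, at 0.69, 0.04 and 0.08 in replicates 1, 2 and 3, the gap of replicate 1 to the mean of the others was 0.63. In cutl-13, at -0.37, 0.40 and 0.06, that gap was -0.60. Of the 22 cutl genes that did not pass, 17 had arrays on both sides of 0. Mixed signs are likelier in genes that did not pass, and the share over all such genes was not computed. In the gene order of RefSeq, cutl-1 and cut-2 lie on the same chromosome with 3 protein-coding genes between them, the closest pair of the 35 genes. Their ratios differed: cutl-1 stood at 0.32, 0.42 and -0.10 in replicates 1, 2 and 3, below cut-2 on every array, by 1.95, 0.53 and 2.05.

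None of the 5 ZP genes with other names passed. The products of noah-1 and noah-2 are related to the fly protein NompA and belong to the sheath that carries force over the epidermis of the elongating embryo. The ratio of noah-1 was -0.40, -0.22 and 0.26 in replicates 1, 2 and 3, and that of noah-2 was 0.62, -0.24 and 0.20. Both had arrays on either side of 0. The mean of noah-1 was -0.12 ± 0.34 and that of noah-2 0.19 ± 0.43 (SD, n = 3), with 95% intervals from -0.51 to 0.27 and from -0.23 to 0.62. The gap between them was 1.02 in replicate 1, where noah-2 was the higher, and -0.02 and -0.07 in replicates 2 and 3.

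The product of fbn-1 is a fibrillin-like protein with a ZP domain that acts in the embryonic sheath, in the pharynx and at the moult. It stood at -0.58, -0.14 and -0.26, below 0 on all 3 arrays. Its mean was -0.33 ± 0.23 (SD, n = 3; adjusted p = 0.151, limma), with an interval from -0.67 to 0.02. With blocks of rows centred it was -0.36 and passed (0.0448). The ZP protein of dyf-7 anchors the tips of sensory dendrites while the neurons move away. Its gene stood at -0.27, 0.76 and 0.45, so replicate 1 lay on the other side of 0. The mean was 0.31 ± 0.53 (SD, n = 3; adjusted p = 0.303, limma). Without replicate 1 it was 0.61 and passed (0.00705), and without replicate 2 it was 0.09 (0.871). The ZP gene ram-5, needed for the shape of the sensory rays of the male tail, stood at 0.64, -0.09 and 0.02. Its mean was 0.19 ± 0.39 (SD, n = 3; adjusted p = 0.486, limma), and without replicate 1 it was -0.04.

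The 95% interval of the fit lay within 1 of 0 on the log2 scale for 27 of the 28 genes that did not pass. With passing genes included, this held for 29 of the 35 members and for 15017 of all 19293 genes. Of the 7 genes that passed, 5 had a mean within 1 of 0, so these intervals leave room for differences of the size called elsewhere in the family. The exception among the 28 genes was cutl-3, whose interval reached 1.12. No spot intensities were used here, so whether a ratio near 0 came from a spot with measurable signal was not tested. In whole worms, fewer cells that express a gene and less transcript per cell cannot be told apart.

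The order of the family depended on the array. Over the 35 genes, replicates 1 and 2 correlated at r = 0.55, replicates 1 and 3 at 0.62 and replicates 2 and 3 at 0.82. Over the 33 genes without cut-1 and cut-2 these values were 0.21, 0.16 and 0.64. These correlations are descriptions across genes that share the same arrays. The median gap between replicate 1 and the mean of the others was 0.42, and that between replicates 2 and 3 was 0.24. For 29 of the 35 genes the value in replicate 1 had the sign of the median of its block of rows, against 19 in replicate 2 and 18 in replicate 3. Several of these genes share a block, and the same share over all genes was not computed. Block medians also spread more on replicate 1 (SD 0.22) than on replicates 2 and 3 (0.12 and 0.10). These counts are therefore not shown to be particular to the family. The part of row order in these ratios was not tested beyond centring the blocks. The sources used do not tie row order to places on the slide. Members of a block shared a chromosome in some blocks, as cut-2, cutl-1 and cutl-4 did, and not in others. With blocks centred, cut-1 (-2.36), cut-6 (-1.04), cut-4 (-0.67), cutl-12 (-0.59), cut-2 (1.64) and cutl-16 (0.38) still passed, and cutl-15 (-0.60) and fbn-1 passed besides. In that setting 16.25% of all genes were higher and 17.17% lower.

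**Figure D3:**
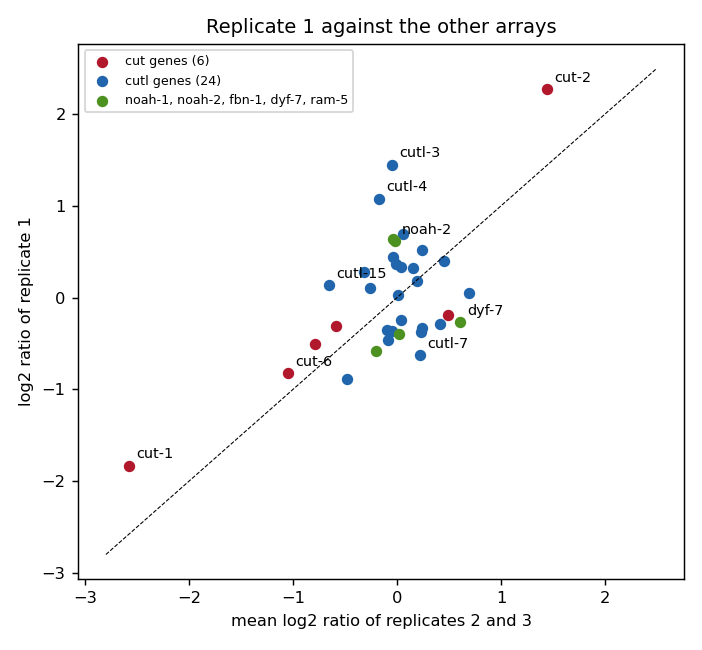
Log2 ratio of each of the 35 genes in replicate 1 (vertical axis) against its mean in replicates 2 and 3 (horizontal axis), with a dashed line of equal values. Points above the line were higher in replicate 1: cut-1 and cut-2 by 0.74 and 0.83, cut-6 by 0.23, and cutl-3 and cutl-4, at 1.45 and 1.08 in replicate 1, by more.

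Related genes of the apical matrix were read beside the family. Of all genes tested, 13.7% were lower and 14.8% higher, and no list was tested against these shares. Of 11 measured genes of other apical matrix proteins, 4 were lower, 1 higher and 6 did not pass, with a median of -0.41. The lipocalin-related gene lpr-5 stood at -1.05 ± 0.33 and dex-1, whose product acts with that of dyf-7 at dendrite tips, at -0.75 ± 0.24 (SD, n = 3). Both were below 0 on all 3 arrays. The higher gene was egg-6, which encodes a leucine-rich repeat protein and is named for a role in the egg, at 1.54 ± 0.17 (SD, n = 3). Without replicate 1 the count was 10 lower, and without replicate 2 or 3 it was 3. The share of all genes called lower moved as well. It was 20% without replicate 1, 9.3% without replicate 2 and 10.3% without replicate 3.

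Of 15 genes of enzymes and cofactors that process or crosslink the matrix, 6 were lower, 1 higher and 8 did not pass, with a median of -0.41. The prolyl hydroxylase gene phy-2 stood at -1.86 ± 0.20 and nas-37, an astacin protease gene of the moult, at -0.89 ± 0.18 (SD, n = 3). The higher gene was pdi-1, a disulfide isomerase gene, at 0.68 ± 0.13, and it did not pass without replicate 2 (adjusted p = 0.0504, limma) or without replicate 3 (0.0587). Among the lower were 3 genes of tyrosine crosslinking, named after their values were seen and with no list of their own. They were the peroxidase gene mlt-7 at -0.73 ± 0.33, the dual oxidase gene bli-3 at -0.61 ± 0.35 and the tetraspanin gene tsp-15 at -0.59 ± 0.28 (SD, n = 3). The 2 rows of bli-3 had means of -0.42 and -0.80, and the first did not pass alone (adjusted p = 0.116, limma). Without replicate 2, tsp-15 did not pass (0.102). Another gene of this pathway on the list, the dual oxidase maturation factor gene doxa-1, stood at 0.14, -0.46 and -0.19 and did not pass (mean -0.17, adjusted p = 0.480, limma).

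Of 5 measured collagen genes of the annular furrows of the cuticle, 4 were lower and 1 did not pass, with a median of -0.67. The furrow collagen gene dpy-9 stood at -1.93, -2.74 and -2.13 in replicates 1, 2 and 3, a mean of -2.27 ± 0.42 (SD, n = 3), close to the ratio of cut-1. The ratios of dpy-8 were -0.46, -2.50 and -2.03, with replicate 1 apart from the others. Its mean was -1.66 ± 1.07 (SD, n = 3), and -2.26 without replicate 1. Without replicate 2 the count of lower furrow collagens was 2, where 9.3% of all genes were lower. Collagen genes are alike in sequence, so their probes may share transcripts.

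Of 9 genes of epidermal attachment, 2 were higher, none lower and 7 did not pass, with a median of 0.05. The higher ones were the intermediate filament genes mua-6 at 0.69 ± 0.12 and ifb-1 at 0.61 ± 0.21 (SD, n = 3). Neither passed without replicate 3 (adjusted p = 0.0752 and 0.193, limma). Without replicate 1 the count was 4 higher, where 22% of all genes were higher. Of 11 measured transcription regulators of the epidermis, 3 were lower and 8 did not pass, with a median of -0.28. The zinc finger genes lin-29, which directs the switch of the seam to its adult state, and bed-3, a moulting gene, stood at -0.79 ± 0.02 and -0.73 ± 0.30 (SD, n = 3). Without replicate 1 the counts were 4 lower and 2 higher, where 20% of all genes were lower and 22% higher.

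Markers of tissues known to make these proteins were read as well, beside 13.7% of all genes lower and 14.8% higher. Of 6 measured seam cell markers, 1 was lower and 5 did not pass, with medians of 0.22, -0.28 and -0.15 in replicates 1, 2 and 3. Of 6 markers of the main body epidermis, 4 were lower and 2 did not pass, with medians of -0.37, -0.97 and -0.72. Of 5 markers of amphid glia and sensory dendrites, 3 were lower and 2 did not pass, with medians of -0.40, -0.55 and -0.66. The lists share genes. The epidermis marker dpy-7 is also among the furrow collagens, and the seam markers ceh-16 and egl-18 are also among the transcription regulators. The part of these markers in the ratios of the cuticlin and ZP genes was not tested.

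**Figure D4:**
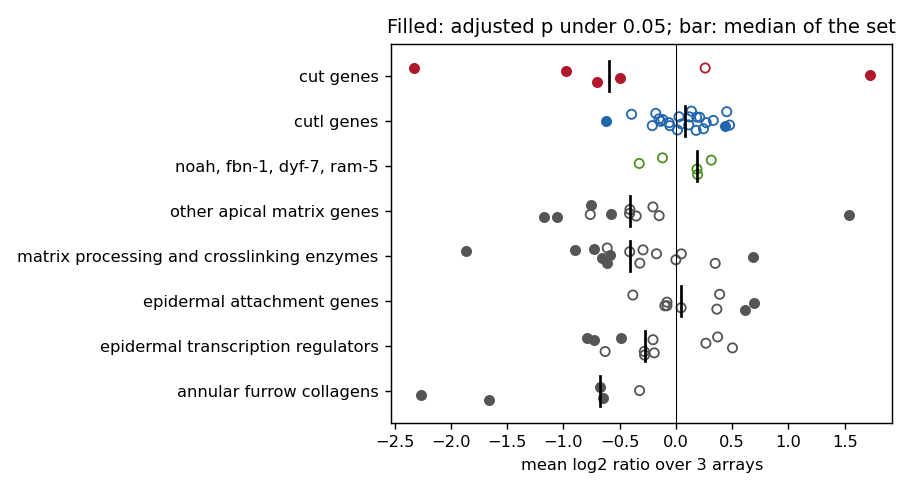
Mean log2 ratio over 3 arrays (horizontal axis) of each gene of the family and of 5 lists of related genes (rows), with vertical scatter for legibility. Filled points have an adjusted p under 0.05, and the bar is the median of each set, at -0.60 for the cut genes and 0.08 for the cutl genes.

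The calls held to different degrees under other settings. The genes cut-1, cut-6 and cut-2 passed under 10 of 11 alternatives. The exception was the fit without moderation of the variance, in which none of the 19293 genes passed in limma, with 5 of the 35 genes and 4903 of all genes at an unadjusted p under 0.05. The count of the family without replicate 1 was 6 higher and 6 lower, with 22.2% and 20.2% of all genes called. Without replicate 2 it was 2 and 2, with 9.93% and 9.34%, and without replicate 3 it was 1 and 4, with 10.1% and 10.3%.

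**Figure D5:**
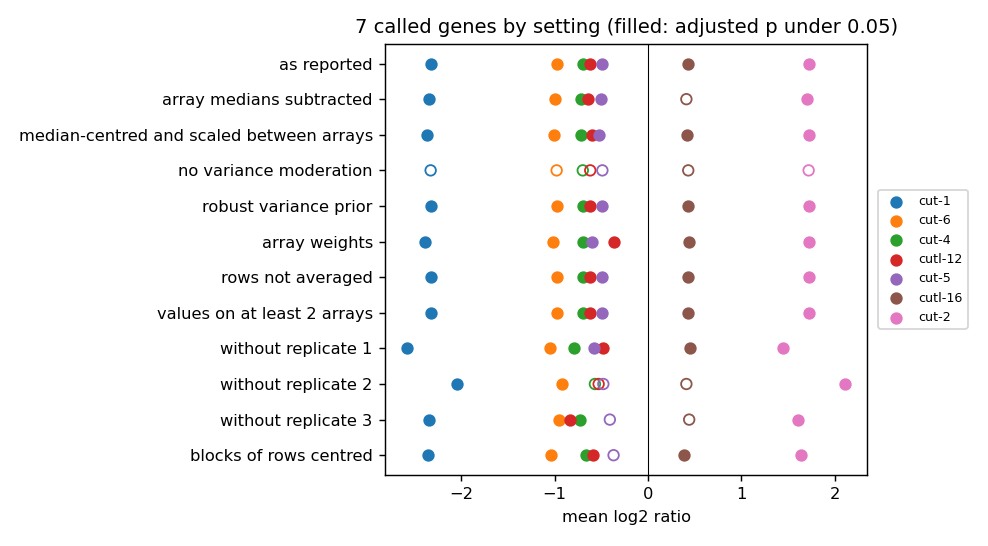
Mean log2 ratio (horizontal axis) of the 7 genes with an adjusted p under 0.05, as reported and under 11 other settings (rows), 1 colour per gene; filled points passed under that setting and open points did not. The points of cut-1, cut-6 and cut-2 are filled in every row but that without variance moderation.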

How the data were processed

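The values the authors deposited are log2 ratios. Base 2 was checked on them: turned back to linear ratios, all 59554 values under 10 fell on a grid with steps of 0.001, to within 0.01 of a step. Array means ran from -0.0034 to -0.0020, so a shift common to most transcripts is not visible. How the slides were scanned, corrected and normalised, the dyes and the direction were not given in the sources used.

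Of 20000 rows, GEO's platform annotation gives 15655 a single symbol and 198 several. Symbols were updated through RefSeq (assembly WBcel235), which left all 35 members' symbols unchanged. Rows were averaged per symbol, and each row without a single symbol was kept as a gene of its own. Genes with values on all 3 arrays were tested, 15112 of them with a symbol. The test of each log2 ratio against 0 used lmFit and eBayes of limma 3.58.1 in R 4.3.3, two-sided. Benjamini-Hochberg adjustment ran over 19293 genes, with a threshold of 0.05. The fit was first tried on simulated arrays that were all alike in quality, with few changed genes. Its behaviour with an array that stands apart, as replicate 1 did, was not tested. The smallest two-sided p of an exact sign-flip test with 3 arrays is 0.25, so calls rest on the variance shared across genes (prior of 5.86 degrees of freedom and an SD of 0.27, with 2 residual). The reference's own spread was not measured, and its channel was the same on all arrays.

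The members and lists were chosen with earlier results of these data known. Full values were given for members past the threshold and for cut-1 to cut-6, noah-1, noah-2, fbn-1, dyf-7 and ram-5. For each list of related genes, up to 2 with the smallest p in each direction were named. Other genes were named after their values were seen. Alternatives were median centring, scaling, no moderation, a robust prior, array weights, single rows, values on at least 2 arrays and leaving out each array. Centring of 32 blocks of 625 rows was added after seeing the data.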

Additional observations from a re-analysis of the deposited data

How the results depend on the processing

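No paired analysis was possible because the design has a single group. Across 11 alternatives, 22 of the 35 genes kept their sign, among them all 7 that passed. Without variance moderation no gene of the family and no gene at all passed (0 higher and 0 lower). With array weights (0.282, 1.123 and 3.156 for replicates 1, 2 and 3) 7 members were higher and 6 lower, against 4874 higher and 4413 lower genes in all, and cutl-12 stood at -0.37. With array medians subtracted 1 member was higher and 5 lower, where 13.99% of all genes were higher and 14.11% lower. Leaving out 1 array gave 1 to 6 higher and 2 to 6 lower members, and a family median of -0.01 to 0.08. The 13 genes that changed sign had not passed. With array weights the means were 0.10 for noah-1, 0.14 for cutl-7, -0.04 for cutl-6, -0.04 for cutl-11, -0.07 for cutl-27 and -0.08 for cutl-4. For cutl-6 the mean was -0.01 with medians subtracted or with scaling and -0.08 with blocks of rows centred, where cutl-13 stood at -0.06. Leaving out 1 array moved the means as follows: noah-1 from -0.31 to 0.02, noah-2 from -0.02 to 0.41 and ram-5 from -0.04 to 0.33. For cutl-3 the range was -0.05 to 0.75, for cutl-4 -0.17 to 0.48, for cutl-5 -0.33 to 0.24, for cutl-6 -0.04 to 0.08 and for cutl-7 -0.23 to 0.22. For cutl-8 it was -0.18 to 0.04, for cutl-11 -0.01 to 0.24, for cutl-13 -0.16 to 0.23, for cutl-19 -0.31 to 0.17 and for cutl-27 -0.04 to 0.27. The causes of these changes were not tested. The number of arrays and the absence of spot intensities limit what can be said of ratios near 0.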
